A study of Homo sapiens with 6 samples.

Results

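The actomyosin system was examined in 2 human glioblastoma cell lines, U87MG and T98G, as a set of 48 listed genes for myosins, tropomyosins, smooth muscle actins, actin cross-linkers and the kinases that act on them. Members were the probe sets whose platform gene symbol was one of these names, with the probe set of highest mean over the 6 arrays standing for each gene, and with every probe set shown for MYH10 and SVIL. Of the 48, 44 were measured among 11963 genes in all. VIL2 was found under its current symbol EZR, and TPM3, FLNA, FLNC and CFL2 were not analysed here.

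Each line was represented by 3 Affymetrix arrays of total RNA. The U87MG group and the T98G group were both grown in DMEM with fetal bovine serum, and the labels name no treatment, allele or agent for either. Each group is a single established line, so a difference belongs to these lines and not to glioblastoma as a class. By the labels, U87MG cells resist apoptosis triggered by bortezomib or by the isopeptidase inhibitor G5 and die by necrosis with G5, whereas T98G cells die by apoptosis with either and partly resist that necrosis. Whether the 3 arrays of a line came from different cultures is not stated, and the p-values therefore cover the spread among arrays, which may be technical. Levels are the deposited log2 values per probe set, differences are U87MG minus T98G on the same scale, and folds are taken from those differences. A gene was called higher or lower where its adjusted p from limma was under 0.05 and its level differed at least 2-fold.

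Across probe sets, correlations were 0.991 to 0.997 within a line and 0.934 to 0.938 between the lines. Poly-A control probe sets averaged 5.30 on U87MG replicate 3, against 6.10 and 6.84 on the other U87MG arrays and 6.25 to 6.63 on the T98G arrays. The 3′ minus 5′ value of the ACTB control probe sets was 0.35 to 0.61 on U87MG arrays and 0.38 to 0.68 on T98G arrays. Of 10 astroglial markers, 6 lay under 7.63 in both lines, among them GFAP at 6.52 in U87MG and 6.42 in T98G, S100B and AQP4. That value is the midpoint of all probe sets ranked by mean level and not a detection limit. VIM reached 14.85 in U87MG and 14.59 in T98G, and SLC1A3 and NES were higher and SOX9 lower in U87MG.

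Myosin II motors pull on actin filaments, and are switched on when their regulatory light chain is phosphorylated by myosin light chain kinase or by the ROCK kinases. Tropomyosins, caldesmon and calponins lie along the filament and set which myosins can use it, while alpha-actinins, fascin, plastins and supervillin link filaments to each other or to the membrane. Glioblastoma cells are known to rely on myosin II to squeeze through the narrow spaces of brain tissue. Many of these genes carry the CArG box, the site bound by serum response factor, which raises muscle-type and cytoskeletal genes with its MRTF co-activators.

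Of the 44 measured members, 8 were called higher in U87MG, 5 lower and 31 neither. Called genes made up 29.5% of the members, against 13.6% of all genes, of which 6.56% were higher and 7.01% lower. The median difference over the members was -0.06, against -0.01 over all genes, and their median size of difference was 0.62, against 0.26 over all genes. For 30 of the 44 members (68.2%) the U87MG arrays lay all above or all below the T98G arrays, against 52% of all genes. Of those 30, 18 were higher and 12 lower in U87MG, against 2927 higher and 3297 lower of all genes. At least 4-fold differences were held by 7 members, and 4.80% of all genes differed that far. The members were chosen with earlier results of these data known, so these shares describe the list and are not a test of it. In whole-culture RNA, fewer cells with a transcript and less of it per cell cannot be told apart.

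**Figure D1:**
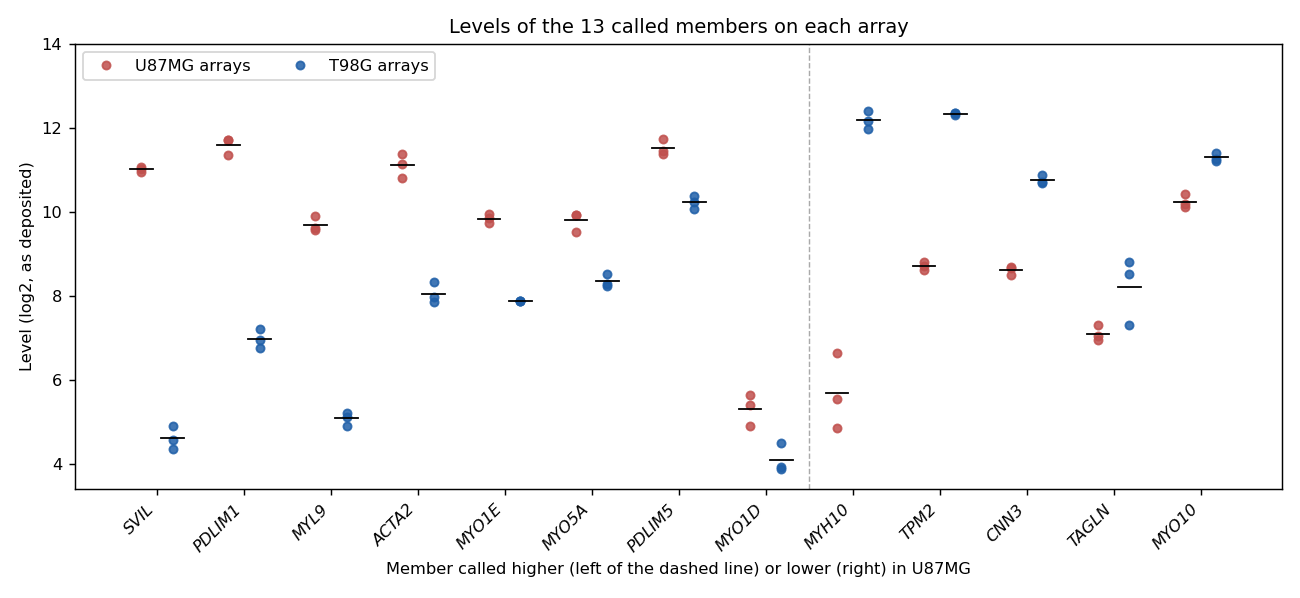
Levels of the 13 called members on each array (vertical axis, log2 as deposited), with U87MG arrays left of T98G arrays for each gene and a black bar at the mean of the 3 arrays. The arrays of the lines stand apart for every gene shown except TAGLN, where T98G replicate 1 at 7.29 lies among the U87MG arrays.

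RefSeq windows of GRCh38.p14, running from 250 bases before to 50 bases after a gene's start, were found for 40 of the 44 measured members and not for MYL9, TAGLN, FSCN1 and PFN2. A CArG box is CC, then 6 bases each A or T, then GG, a pattern that reads the same way on both strands. It stood in the windows of 8 of these 40 members. Of genes measured on the arrays, 174 of 9563 with a window held it (1.82%), and 438 of 27305 genes in the whole table (1.60%). By windows, 8 of the members' 71 held a box (11.3%), against 1.29% of all windows. Among called members these were SVIL and MYO1E, both higher in U87MG, and the other 6 were ACTG2, ACTN1, CNN2, MYLK, ROCK2 and TPM4, of which none was called. Of members with a window, a box was thus held by 2 of 7 called higher, 0 of 4 called lower and 6 of 29 not called. This split leaves out MYL9, called higher, and TAGLN, called lower, which had no window. Boxes outside the windows or departing from the exact pattern were not searched for, so a member without a match may still carry such a box. The bases before the start are shown for both called members with a box and, beside them, for ACTG2, a smooth muscle actin with 2 boxes, and MYLK, whose levels differed less. The box is in capitals. The SVIL stretch lies at chr10:29634972-29635221 on the minus strand, that of MYO1E at chr15:59372872-59373121 on the minus strand, that of ACTG2 at chr2:73892758-73893007 on the plus strand and that of MYLK at chr3:123620549-123620798 on the minus strand.
SVIL: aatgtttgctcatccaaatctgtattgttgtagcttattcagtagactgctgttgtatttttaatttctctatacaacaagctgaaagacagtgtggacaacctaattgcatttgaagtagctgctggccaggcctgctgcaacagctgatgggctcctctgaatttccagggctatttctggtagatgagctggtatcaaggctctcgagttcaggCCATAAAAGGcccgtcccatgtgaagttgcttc
MYO1E: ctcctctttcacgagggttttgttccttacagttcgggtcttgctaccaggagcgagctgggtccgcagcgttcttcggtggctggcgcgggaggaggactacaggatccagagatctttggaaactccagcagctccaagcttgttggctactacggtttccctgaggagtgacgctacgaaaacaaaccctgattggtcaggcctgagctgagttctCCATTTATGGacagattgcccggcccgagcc
ACTG2: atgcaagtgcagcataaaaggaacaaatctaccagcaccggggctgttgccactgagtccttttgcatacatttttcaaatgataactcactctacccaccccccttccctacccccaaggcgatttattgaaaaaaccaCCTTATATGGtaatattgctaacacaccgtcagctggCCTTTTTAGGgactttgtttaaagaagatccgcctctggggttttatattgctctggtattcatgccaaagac
MYLK: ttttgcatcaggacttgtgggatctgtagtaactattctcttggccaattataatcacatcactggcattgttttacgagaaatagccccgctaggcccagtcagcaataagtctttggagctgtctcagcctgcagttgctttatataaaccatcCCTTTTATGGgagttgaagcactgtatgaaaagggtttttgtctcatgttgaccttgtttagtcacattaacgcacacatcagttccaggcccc
The box of SVIL begins 33 bases and that of MYO1E 31 bases before the start. SVIL has 4 windows in the table and 1 of them holds a box, and which start these cells used was not measured. The boxes of ACTG2 begin 110 and 73 bases and that of MYLK 94 bases before it. These matches are letters in a window and not measured binding. SRF itself was measured at 8.53 ± 0.15 in U87MG and 8.23 ± 0.07 in T98G (SD, n = 3 arrays, limma adjusted p = 0.0554). Its co-activator gene MRTFA had 7.95 ± 0.09 in U87MG and 8.92 ± 0.08 in T98G. That difference of -0.98 (limma adjusted p = 4.41e-05) fell short of 2-fold, and the 3 probe sets of MRTFA ran from -0.98 to -0.15. MRTFB, the other co-activator gene measured, had -0.40 (limma adjusted p = 0.0149).

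Myosin II showed opposite extremes, the heavy chain gene MYH10 lower and the light chain gene MYL9 higher in U87MG, with the other heavy chain gene MYH9 not called. MYH10 encodes non-muscle myosin heavy chain IIB. On the brighter of its probe sets, 212372_at, it read 4.85, 5.54 and 6.64 on the U87MG arrays, against 12.17, 11.98 and 12.39 on the T98G arrays. The lines were far apart on every array, while the U87MG arrays spread over a wider range than those of any other member in that line, replicate 3 being the highest. The difference was -6.51 (SE 0.36, limma adjusted p = 5.46e-07), a 90.9-fold lower level, and it was -6.99 without U87MG replicate 3, the array with the low poly-A controls. On the dimmer probe set, 213067_at, MYH10 read 4.27, 4.96 and 4.87 in U87MG, against 8.24, 7.71 and 7.40 in T98G. Fitted among all 19064 probe sets with 1 gene, of which 12.8% were called, this probe set had a difference of -3.08 (adjusted p = 1.03e-05), so both gave the same direction with unequal sizes.

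MYH9, which encodes heavy chain IIA, read 11.69, 12.08 and 12.05 in U87MG, against 11.57, 12.02 and 11.87 in T98G. Its arrays overlapped, and the difference was 0.12 (95% interval -0.21 to 0.46). MYL9, a regulatory light chain of smooth muscle and non-muscle myosin II, read 9.63, 9.56 and 9.91 in U87MG, against 4.91, 5.21 and 5.11 in T98G. This was a 24.6-fold higher level (log2 4.62, SE 0.13, limma adjusted p = 7.42e-09), with little spread in either line. MYL6, the essential light chain, had a difference of 0.52 (0.30 to 0.73) on its bright probe set and -0.06 on the other. MYLK, the light chain kinase, had 10.76 ± 0.16 in U87MG and 11.40 ± 0.18 in T98G (difference -0.64, adjusted p = 0.00307), short of 2-fold. All arrays of MYLK lay lower in U87MG, against the direction of MYL9, the light chain that the kinase acts on.

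Of the 6 unconventional myosins, which carry cargo or tether membranes instead of forming filaments, 3 were higher, 1 lower and 2 neither. Of all genes, 6.56% were called higher and 7.01% lower. MYO1E, a class I myosin of membrane-bound actin, read 9.85, 9.94 and 9.73 in U87MG, against 7.87, 7.86 and 7.88 in T98G, a 3.92-fold higher level (log2 1.97, limma adjusted p = 2.6e-07). Its T98G arrays were almost level with each other. MYO5A, a vesicle transporter, read 9.93, 9.93 and 9.52 in U87MG, against 8.51, 8.23 and 8.29 in T98G (log2 1.45, adjusted p = 2.46e-05), while its other probe set had 0.08, with values near the bottom of the scale in both lines. MYO1D, another class I myosin, read 5.63, 5.39 and 4.90 in U87MG, against 3.93, 4.49 and 3.87 in T98G. T98G replicates 1 and 3 of MYO1D lay under 4.03, the highest value of the bacterial trp control probe sets, for which no transcript should be present. With those values set to 4.03, the mean of MYO1D was 2.17-fold higher in U87MG, a figure that leaves out the spread among arrays. On the values as deposited the fitted difference was log2 1.21 (interval 0.73 to 1.69, limma adjusted p = 0.00125). The lower end of that interval lay under 2-fold.

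MYO10, the filopodial myosin, was the lower one, at 10.11, 10.43 and 10.20 in U87MG, against 11.22, 11.26 and 11.40 in T98G. The arrays did not overlap, but at 2.07-fold (log2 -1.05, limma adjusted p = 6.33e-05) it lay just past the 2-fold minimum. Without U87MG replicate 1 its difference was -0.98 and it was no longer called, and without T98G replicate 3 it was likewise just under the minimum. MYO1C, a class I myosin, had a difference of -0.45 (adjusted p = 0.00741), and MYO6, which walks towards the minus end of actin, had -0.06 (-0.33 to 0.21).

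**Figure D2:**
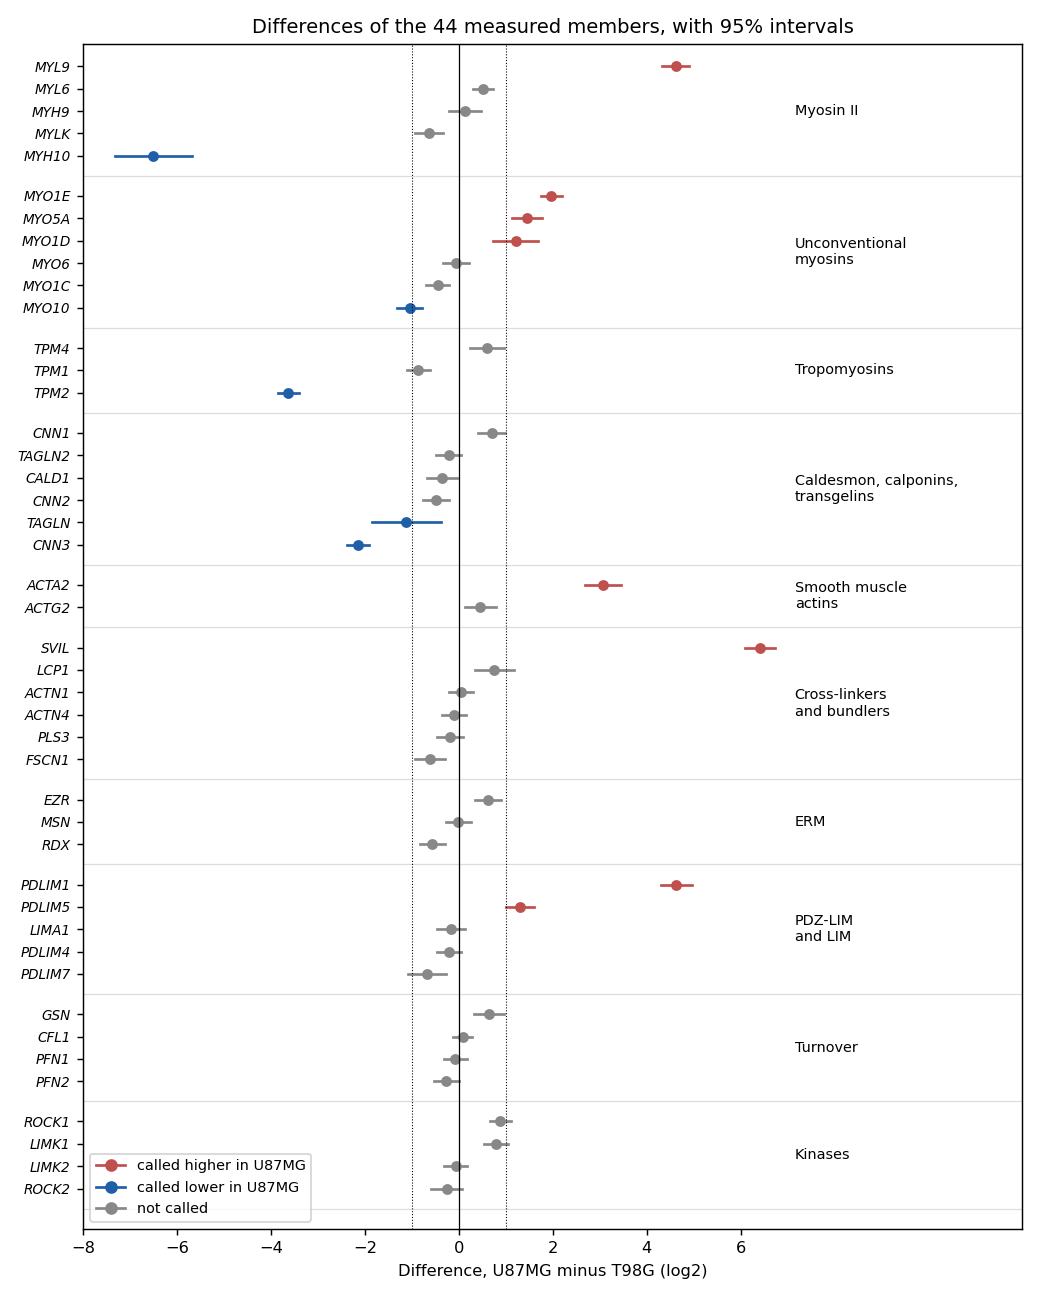
Differences between U87MG and T98G (horizontal axis, log2, points) with 95% intervals (lines) for the 44 measured members by role, the dotted lines marking 2-fold. Called genes stand at both ends of the scale, from MYH10 at -6.51 to SVIL at 6.41, and the kinase, ezrin-radixin-moesin (ERM) and turnover groups hold none.

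Among the tropomyosins, the coiled-coil proteins that wrap the actin filament, TPM2 was lower in U87MG and the others fell short of 2-fold. TPM2 read 8.61, 8.70 and 8.81 in U87MG, against 12.36, 12.35 and 12.31 in T98G. The lines did not overlap and the difference was 12.4-fold (log2 -3.63, SE 0.10, limma adjusted p = 7.28e-09). Its other probe set was also called lower, at -2.41. TPM1 had 12.54 ± 0.08 in U87MG and 13.41 ± 0.13 in T98G (difference -0.86, adjusted p = 0.00014). Its 4 probe sets ran from -1.24 to -0.73 and 2 of them were called lower. TPM4 went the other way without reaching 2-fold, at 11.62 ± 0.11 in U87MG and 11.02 ± 0.33 in T98G (0.59, 0.24 to 0.95).

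Of the 6 caldesmon, calponin and transgelin genes, whose products bind along actin filaments, 0 were higher and 2 lower. Over all genes these shares were 6.56% and 7.01%. CNN3, the acidic calponin, read 8.49, 8.67 and 8.65 in U87MG, against 10.70, 10.87 and 10.68 in T98G, a 4.42-fold lower level (log2 -2.14, limma adjusted p = 2.28e-07). TAGLN, which encodes SM22-alpha, read 6.94, 7.30 and 7.05 in U87MG, against 7.29, 8.53 and 8.82 in T98G. The lines overlapped, since T98G replicate 1 lay within the U87MG range. TAGLN was called at -1.12 (SE 0.33, adjusted p = 0.0206), and lost that call when U87MG replicate 1 or 3 (adjusted p = 0.0608 and 0.0555) or T98G replicate 2 or 3 (0.0742 and 0.0776) was left out. CNN1, the calponin of smooth muscle, had 7.46 ± 0.12 in U87MG and 6.76 ± 0.20 in T98G, higher by 0.70 and short of 2-fold.

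CALD1, which encodes caldesmon, had 12.66 ± 0.27 in U87MG and 13.01 ± 0.07 in T98G on its brightest probe set and was not called (difference -0.36, limma adjusted p = 0.0697). Its 8 probe sets ran from -2.37 to -0.17, and 2 were called lower. The furthest of them, 205525_at, read 6.59, 6.80 and 6.31 in U87MG, against 9.04, 8.65 and 9.12 in T98G. CALD1 is known to give rise to a smooth muscle and a non-muscle caldesmon by splicing, and which transcripts each probe set detects was not determined. TAGLN2 and CNN2 had -0.21 and -0.49.

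Of the smooth muscle actins, ACTA2 was higher in U87MG and ACTG2 was short of 2-fold. ACTA2, the alpha actin of smooth muscle and myofibroblasts, read 10.81, 11.39 and 11.14 in U87MG, against 7.96, 7.84 and 8.34 in T98G, an 8.38-fold higher level (log2 3.07, SE 0.17, limma adjusted p = 6.03e-07). Its other probe set had 0.04, with values of 4.08 to 5.10 in U87MG and 4.32 to 4.55 in T98G. ACTG2, the gamma actin of visceral muscle, read 6.48, 6.94 and 6.88 in U87MG, against 6.35, 6.46 and 6.12 in T98G (log2 0.46, adjusted p = 0.0308). Genes known from smooth muscle thus went both ways. MYL9 and ACTA2 were called higher and TPM2 and TAGLN lower, the call of TAGLN being lost when some single arrays were left out. CNN1 and ACTG2 were higher without reaching 2-fold. Of 5 other smooth muscle markers, 4 were measured and 1, SMTN, was called higher, while MYH11, the heavy chain that defines smooth muscle, had 6.93 in U87MG and 7.13 in T98G. Summed over those 4 markers, the log2 levels were 30.04 to 31.36 on U87MG arrays and 29.14 to 29.88 on T98G arrays. SMTN had a difference of 1.25, while MYH11, DES and LMOD1 had -0.20, -0.11 and 0.10, so the sum does not stand for the markers as a set. The part of these markers in the ACTA2 and MYL9 results was not tested.

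Of the 6 measured genes for cross-linkers and bundlers, SVIL was higher in U87MG and the other 5 were not called. Over all genes, 13.6% were called. SVIL encodes supervillin, a membrane-linked protein that binds actin and myosin II. On 202565_s_at it read 11.02, 10.96 and 11.07 in U87MG, against 4.90, 4.56 and 4.35 in T98G, and on 202566_s_at 10.05, 9.93 and 10.13 in U87MG, against 5.19, 5.37 and 5.18 in T98G. These probe sets set the lines far apart on every array, with differences of 6.41 and 4.79 (limma adjusted p = 8.04e-09 for both among all probe sets). The remaining probe set of SVIL, 217634_at, read 6.65, 6.69 and 6.72 in U87MG, against 6.37, 6.43 and 6.53 in T98G (0.24, adjusted p = 0.0788). The call of SVIL rests on the 2 probe sets whose identifiers mark possible matches to several transcripts, and without them it was not called.

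Alpha-actinins 1 and 4, which space parallel filaments apart, had differences of 0.04 (-0.21 to 0.30) for ACTN1 and -0.11 (-0.36 to 0.14) for ACTN4. Those intervals lie within 2-fold in either direction. FSCN1, which encodes the filopodial bundler fascin, had 10.47 ± 0.18 in U87MG and 11.09 ± 0.21 in T98G (difference -0.62, limma adjusted p = 0.0056). LCP1, the plastin of leukocytes, had 7.95 ± 0.42 in U87MG and 7.19 ± 0.10 in T98G (0.76, adjusted p = 0.00895), and 0 of 3 measured leukocyte markers were called. PLS3, the plastin of most other cells, had -0.20 (-0.47 to 0.08).

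**Figure D3:**
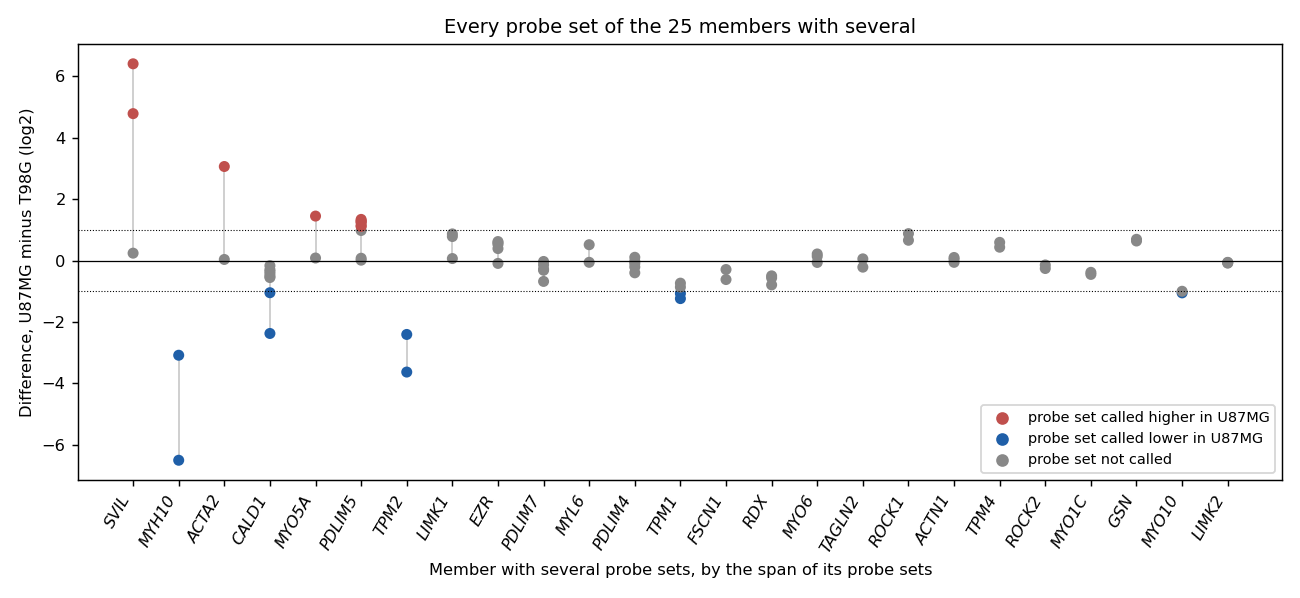
Difference between U87MG and T98G (vertical axis, log2) for every probe set of the 25 members with several, ordered by the span of their probe sets, coloured by the call among all probe sets. Those of SVIL run from 0.24 to 6.41 and those of CALD1 from -2.37 to -0.17, and no called member has a probe set called the other way.

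PDZ-LIM proteins dock on alpha-actinin. Their genes, taken with LIMA1, held 2 of 5 called higher and 0 lower, against 6.56% and 7.01% of all genes. PDLIM1 read 11.71, 11.71 and 11.36 in U87MG, against 6.75, 7.20 and 6.94 in T98G, a 24.8-fold higher level (log2 4.63, SE 0.15, limma adjusted p = 1.55e-08). The gap was about as wide as that of MYL9, and the gene had a single probe set. PDLIM5 read 11.39, 11.74 and 11.44 in U87MG, against 10.39, 10.23 and 10.06 in T98G (2.45-fold, adjusted p = 3.63e-05), with 6 of 9 probe sets called higher and the rest down to 0.01. PDLIM7 had 9.47 ± 0.35 in U87MG and 10.15 ± 0.22 in T98G (difference -0.68), short of 2-fold. PDLIM4 and LIMA1, which encodes the filament-stabilising protein EPLIN, had -0.21 and -0.16.

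The ERM genes, whose products tie actin to the plasma membrane, held no gene called by limma (0 of 3). Of these, 2 had an adjusted p under 0.05 and fell short of 2-fold, where 41.3% of all genes had an adjusted p under 0.05. EZR, which encodes ezrin, had 10.36 ± 0.12 in U87MG and 9.74 ± 0.19 in T98G (difference 0.62, adjusted p = 0.00281), and 4 of its 5 probe sets were above 0. RDX, which encodes radixin, had 11.23 ± 0.19 in U87MG and 11.79 ± 0.07 in T98G (-0.56, adjusted p = 0.00398). MSN, which encodes moesin, had -0.01 (-0.28 to 0.26). Ezrin and radixin thus leaned opposite ways at under 2-fold, while moesin had an interval around 0.

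The genes of filament turnover held none called by limma (0 of 4). Of these, 1 had an adjusted p under 0.05 and fell short of 2-fold, where 41.3% of all genes had an adjusted p under 0.05. Cofilin (CFL1), which severs filaments, and profilin 1 (PFN1), which feeds monomers to growing ends, had differences of 0.08 (-0.13 to 0.28) and -0.07 (-0.31 to 0.16). PFN2 had -0.27 (-0.54 to 0.00). GSN, which encodes the severing and capping protein gelsolin, had 10.69 ± 0.15 in U87MG and 10.05 ± 0.26 in T98G (0.64, limma adjusted p = 0.00539), and its arrays did not overlap. The kinases likewise held none called by limma (0 of 4). Among them, 2 had an adjusted p under 0.05 and fell short of 2-fold, beside the same 41.3% of all genes. ROCK1 had 11.37 ± 0.11 in U87MG and 10.50 ± 0.02 in T98G (0.88, adjusted p = 8.18e-05). LIMK1, which phosphorylates cofilin, had 8.42 ± 0.07 in U87MG and 7.63 ± 0.17 in T98G (0.78, adjusted p = 0.000404). The 3 probe sets of LIMK1 ran from 0.07 to 0.87, and the 2 of ROCK1 had 0.66 and 0.88. The related kinases ROCK2 and LIMK2 had -0.26 (-0.59 to 0.07) and -0.07 (-0.32 to 0.18).

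Beside the calls, 16 members had a limma adjusted p under 0.05 without reaching 2-fold, and 15 had a higher adjusted p. Together 29 of the 44 members had an adjusted p under 0.05 (17 higher and 12 lower), against 41.3% of all genes.

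**Figure D4:**
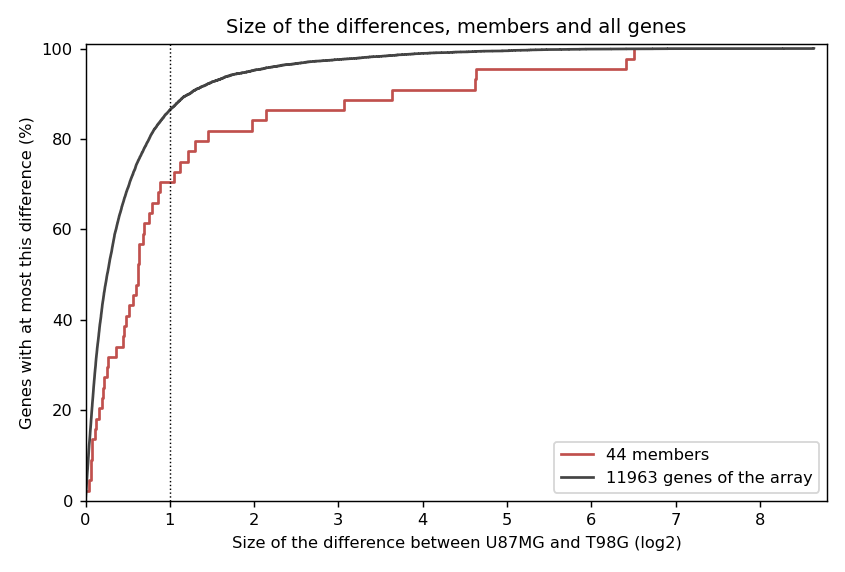
Share of genes (vertical axis, percent) with at most the difference on the horizontal axis (size on the log2 scale) for the 44 members and all 11963 genes, the dotted line marking 2-fold. The curve of the members lies to the right of that of all genes over most of the range, with medians of 0.62 and 0.26.

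Other genes of the actin system, listed apart from the members, held 8 higher and 8 lower in U87MG among 79 measured of 89, with 63 neither and a median difference of 0.10. Called genes made up 20.3% of them, against 13.6% of all genes (6.56% higher and 7.01% lower). CAPG, which caps filament ends, had the widest difference, reading 11.69, 11.20 and 11.40 in U87MG, against 6.53, 6.26 and 6.42 in T98G (32.6-fold, limma adjusted p = 7.42e-09). RND3, a small GTPase family protein that inhibits ROCK1, was 4.86-fold higher (12.27 ± 0.08 in U87MG and 9.99 ± 0.27 in T98G). RHOB was lower at 8.11 ± 0.17 in U87MG and 10.09 ± 0.35 in T98G, while RHOA had -0.06 (-0.29 to 0.17). RND3 and RHOB were thus called in opposite directions. CDC42 was called 2.83-fold higher on its brightest probe set, where U87MG replicate 3 read 10.71 against 12.08 and 11.88 on the other U87MG arrays, but only 1 of its 4 probe sets was called.

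DBN1, which encodes the side-binding protein drebrin, was 4.82-fold lower, at 8.82 ± 0.23 in U87MG and 11.09 ± 0.04 in T98G, and both of its probe sets were called. CAP2, a monomer-binding protein, was 4.28-fold lower. The other lower genes were SYNPO, DSTN, MARCKS, PALLD and EPS8, at 3.12-fold to 2.01-fold, and the other higher ones were MYL12A, a further regulatory light chain gene, and DIAPH2, SMTN, CDC42BPA and WASF3, at 2.61-fold to 2.13-fold. ACTB, the cytoplasmic actin, had a difference of 0.03 (-0.18 to 0.24).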

How the data were processed

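Total RNA of U87MG and T98G cells was biotin-labelled for Affymetrix arrays by the one-cycle procedure, per the labels. The values are log2 levels of probe sets as deposited. The submitters' processing notes list RMA and limma, with no version or setting, which is not given in the sources used here. As background, RMA summarises the probes of a set and compresses differences of dim transcripts. Values ran from 2.90 to 14.9, no arrays were identical, and precision is limited by having 3 arrays a line.

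Of 22277 probe sets, 19064 had 1 gene in the platform annotation, with symbols updated through Entrez identifiers in RefSeq (GRCh38.p14). The lines were compared (U87MG minus T98G) with R 4.3.3 and limma 3.58.1, by lmFit then eBayes, as a two-sided test whose p-values were Benjamini-Hochberg adjusted across 11963 genes. The steps were tested on simulated data. Named genes were all called members, the widest uncalled member of each role and the 3 widest called other actin genes per direction. Others are named to complete a role or because their probe sets disagreed, after their values were seen. The members and lists were chosen with earlier results of these data known. Alternatives covered thresholds, dim and multiply matching probe sets, averaging, renormalization, variance models, a replicate block and each array left out.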

Additional observations from a re-analysis of the deposited data

How the results depend on the processing

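Members called higher and lower in U87MG numbered 17 and 12 with no minimum fold and 15 and 9 with a minimum of 1.5-fold, against 8 and 5 as reported. Other actin genes numbered 21 higher and 16 lower with no minimum fold and 10 higher and 13 lower at 1.5-fold. Of all genes, 19.7% were higher and 21.7% lower with no minimum fold, and 12.6% and 13.9% at 1.5-fold. Without multiply matching probe sets 32 members were left, 5 higher and 4 lower (6.49% and 6.63% of all genes left). MYL9, PDLIM1, MYO10 and TAGLN then had no value, SVIL had 0.24, TPM1 was called lower at -1.24, and the median size of the members' differences was 0.37. EZR then changed sign, at -0.092, and the call of CDC42 was lost at 0.02, each on a probe set other than the one reported. When the probe sets of each gene were averaged, 5 other actin genes were higher, and MYO5A (0.77), PDLIM5 (0.94) and CDC42 (0.44) were no longer called. With limma's treat against 1.5-fold, MYO1D (adjusted p = 0.0560) and TAGLN (0.370) were not called. The filter on dim probe sets removed MYO1D, whose means of 5.30 in U87MG and 4.09 in T98G lay under its limit of 7.63. Leaving out 1 array gave 8 members higher throughout and 3 to 5 lower, with 3 lower without U87MG replicate 1 or without T98G replicate 3, and the losses were MYO10 and TAGLN. Other actin genes then numbered 8 to 10 higher and 6 to 10 lower. The calls of 4 of the 5 MYH10 and SVIL probe sets held under every alternative run on single probe sets. With the replicate block, 8 members were higher and 5 lower, as without it, and it changed no call of a named gene. Deviations of same-numbered arrays correlated at 0.15, 0.08 and 0.08, so the numbers were not taken to pair the arrays. Of 455 recomputed differences of named genes, 422 kept their direction and their side of the threshold. Renormalized values gave 31 (centred) and 28 (quantile) members whose arrays did not overlap, against 51.7% and 52.9% of all genes, alternatives chosen after seeing the data. Differences near the bottom of the scale depend on how RMA was run, which could not be varied here.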
